A study of Mus musculus with 2 samples.

Results

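The 10 genes described here encode secreted activators of Wnt signalling and 1 readout of it, chosen by symbol from the 32285 genes listed in the data. They are the Wnt ligands *Wnt2b*, *Wnt3a*, *Wnt5a*, *Wnt7a*, *Wnt7b* and *Wnt8b*, the R-spondins *Rspo1*, *Rspo2* and *Rspo3*, and *Axin2*. All 10 were found. Single-cell RNA sequencing (scRNA-seq) profiled dissociated dorsal telencephalon of mouse embryos at E14.5, with 1 droplet library sequenced from the 3' end in each of 2 samples. The study addressed signals that SST+ cortical interneurons send to 2 kinds of cortical progenitor, the radial glial cells (RGCs) and the intermediate progenitors (IPCs). Both samples were wild type (WT), and the sources used here give no treatment, sex or litter. Their titles carry the name EoMltt3, which the labels do not explain, while the methods of the study give a C57BL/6J background. The samples are called replicates 1 and 3 after their labels and form 1 group, so levels were compared between cell classes and not between conditions.

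Wnt proteins are lipid-modified ligands that bind Frizzled receptors with LRP5 or LRP6, which stabilises β-catenin and lets TCF and LEF factors switch on target genes. Some ligands, such as *Wnt5a*, are best known for acting through ROR receptors without β-catenin. R-spondins do not signal alone. They bind LGR receptors and the ubiquitin ligases ZNRF3 and RNF43, which keeps Frizzled receptors on the cell surface and raises the response to Wnt. *Axin2* encodes a scaffold of the β-catenin destruction complex and is itself a widely used target gene of the pathway. In the embryonic forebrain, the cortical hem, a strip of epithelium at the medial edge of the cortex beside the choroid plexus, is a known source of Wnt and bone morphogenetic protein ligands that pattern the hippocampal primordium.

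Promoter windows of 300 bases, from RefSeq on GRCm38.p6, were held for 6 of the 10 genes. They were searched on both strands for the TCF and LEF core motifs CTTTGA and CTTTGT and for the homeodomain core motif TAATTA. *Wnt8b* and *Wnt7a* are shown because their levels in the hem-like cells described next lay far apart. Capitals mark the matches.
Wnt8b (chr19:44493222-44493521, + strand): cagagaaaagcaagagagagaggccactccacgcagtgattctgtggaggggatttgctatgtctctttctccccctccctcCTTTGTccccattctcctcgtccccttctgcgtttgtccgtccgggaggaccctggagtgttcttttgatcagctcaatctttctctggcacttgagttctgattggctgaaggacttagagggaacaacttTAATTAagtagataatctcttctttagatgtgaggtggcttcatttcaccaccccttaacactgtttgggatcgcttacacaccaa
Wnt7a (chr6:91411304-91411603, - strand): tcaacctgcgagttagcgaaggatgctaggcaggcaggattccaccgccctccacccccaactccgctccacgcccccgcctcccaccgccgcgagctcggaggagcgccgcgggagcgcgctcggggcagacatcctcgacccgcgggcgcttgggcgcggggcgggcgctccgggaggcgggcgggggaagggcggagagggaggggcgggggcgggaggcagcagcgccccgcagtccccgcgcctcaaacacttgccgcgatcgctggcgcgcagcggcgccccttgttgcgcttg
The *Wnt8b* window held CTTTGT, starting 168 bases before the listed transcript start, and the palindrome TAATTA, starting 36 bases before it. The windows of *Wnt7a*, *Wnt2b*, *Wnt3a*, *Rspo1* and *Axin2* held none of these letters. Of 32851 mouse windows of the same length, 18.7% held CTTTGT, 16.0% held CTTTGA and 5.29% held TAATTA. The *Wnt8b* window was 48.3% G and C, against 76.0% for *Wnt7a*, 86.3% for *Wnt3a* and a median of 52.7% over all windows.

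Replicate 1 held 64182006 and replicate 3 held 93295807 unique molecular identifiers (UMIs, each marking 1 captured RNA molecule). After filtering, 5184 and 6952 cells were kept, with 15 cell barcodes present in both libraries and 0 of them in hem-like cells. Cells were clustered without the 10 genes, and clusters were named from other marker genes, so each class is called "-like". The libraries differed in make-up. RGC-like cells formed 13.3% of replicate 1 and 22.4% of replicate 3, and MGE interneuron-like cells, from the medial ganglionic eminence, formed 6.40% and 3.12%. Hem-like cells numbered 10 in replicate 1 and 46 in replicate 3, choroid plexus-like cells 3 and 51, meningeal-like cells 49 and 143, and Cajal-Retzius-like cells 43 and 88. Levels are given in CPM, the UMIs of a gene per 1e+06 UMIs summed over a class in 1 replicate. Red blood cell-like cells served as the background of free RNA. In them, *Wnt7b* stood at 11.5 and 1.87 CPM, and the other 9 genes had 0 UMIs in replicate 1 and at most 1 UMI in replicate 3.

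Hem-like cells comprised 2 sub-clusters in which 5 and 6 of 7 hem markers, such as *Lmx1a*, were on. All 8 RGC markers were also on in both, as were 3 of 8 MGE interneuron markers and 3 of 5 markers of interneurons from the caudal ganglionic eminence. In the smaller sub-cluster, of 13 cells, 5 of 9 choroid plexus markers and 3 of 6 markers of neurons from the lateral ganglionic eminence were on. In the larger sub-cluster, of 43 cells, 5 of 7 IPC, 2 of 8 Cajal-Retzius and 2 of 9 choroid plexus markers were on. The hem markers were not confined to these cells, since 4 of 7 were on in every meningeal-like sub-cluster. Clusters were formed from other genes of the same cells, so the tests below describe how far the classes lie apart and not whether the classes exist.

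**Figure D1:**
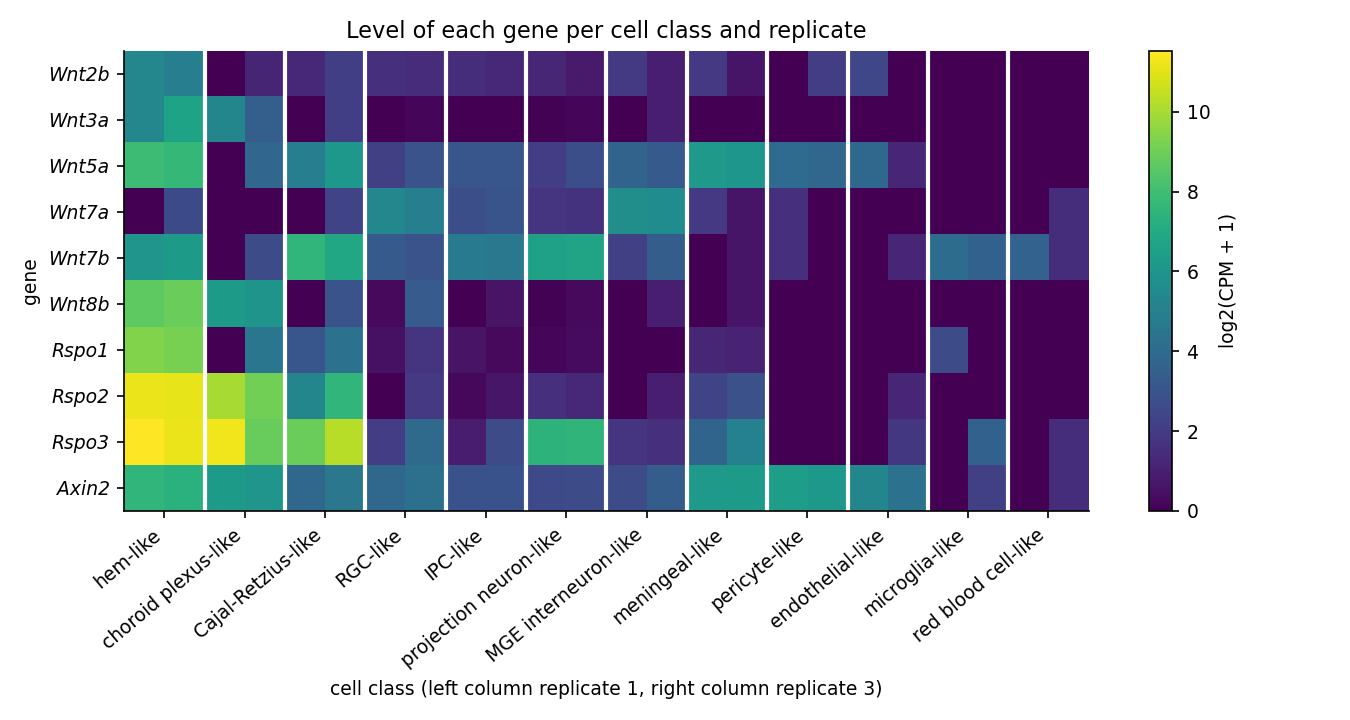
Level of each of the 10 genes, as log2(CPM + 1), in 12 cell classes, with replicate 1 in the left and replicate 3 in the right column of each class. Hem-like cells carry 9 of the 10 genes in both replicates, and *Wnt7a* is brightest in MGE interneuron-like and RGC-like cells. The replicate 1 column of choroid plexus-like cells rests on 3 cells.

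Hem-like cells carried all 3 R-spondins and 5 of the 6 Wnt ligands at levels well above RGC-like cells, and lacked nearly all *Wnt7a*. *Rspo2* stood at 2313 CPM in replicate 1 and 2229.9 CPM in replicate 3 of hem-like cells, against 0 and 2.72 CPM in RGC-like cells. *Rspo3* stood at 2959 and 2327 CPM, against 3.28 and 14.6 CPM. For *Rspo1* the values were 654 and 571 CPM, against 0.423 and 2.37 CPM. No value of a hem-like sum overlapped with one of an RGC-like sum for any R-spondin. The log2 fold changes were 9.95 ± 0.66 (SE) for *Rspo2*, 8.07 ± 0.38 for *Rspo1* and 7.92 ± 0.63 for *Rspo3*, with adjusted p-values of 8.68e-09, 4.76e-10 and 2.35e-08 in edgeR's quasi-likelihood test over 12209 genes (n = 2 replicates).

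Among the Wnt ligands, *Wnt8b*, a ligand long used to mark the medial telencephalon, stood at 407 and 468 CPM in hem-like cells, against 0.212 and 8.96 CPM in the RGC-like class (log2 fold change 6.19 ± 0.67, adjusted p = 5.23e-06). *Wnt3a*, which is required for the hippocampus to form, stood at 39.9 and 100.9 CPM in hem-like cells. In RGC-like cells it had 3 UMIs in all, so the ratio of summed UMIs, 884, has a wide 95% counting interval of 289 to 4395. That interval leaves out the spread between replicates. The edgeR fit gave a smaller fold of 144 (log2 fold change 7.17 ± 0.69, 95% interval 5.81 to 8.52, adjusted p = 3.72e-06). *Wnt5a* was higher as well, at 239 and 207 CPM against 3.60 and 6.79 CPM (log2 fold change 5.10 ± 0.36, adjusted p = 1.16e-08). *Wnt2b* stood at 39.9 and 29.8 CPM against 1.90 and 1.76 CPM (log2 fold change 3.77 ± 0.59, adjusted p = 0.000155). *Wnt7b* stood at 63.8 and 76.1 CPM against 8.68 and 6.69 CPM (log2 fold change 3.12 ± 0.36, adjusted p = 2.18e-06). *Wnt7a* went the other way. It had 0 UMIs in the hem-like cells of replicate 1 and 3 UMIs (4.96 CPM) in replicate 3, against 39.1 and 29.1 CPM in RGC-like cells. The ratio of summed UMIs was 7.87-fold lower in hem-like cells, with a counting interval of 2.68 to 38.2, and the adjusted p was 0.00341.

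*Axin2* stood at 191 and 165 CPM in hem-like cells and at 13.3 and 18.0 CPM in RGC-like cells (log2 fold change 3.31 ± 0.25, adjusted p = 8.28e-09). In all, 9 of the 10 genes were higher and 1 was lower in hem-like cells, where 8.7% of the 12209 genes tested were higher and 6.95% lower. The median log2 fold change of the 10 genes was 5.64, beside -0.08 for all genes. Without the hem-like cells of replicate 3, 8 of the 10 genes passed the threshold, and 567 genes passed it over all genes, against 1910 with both replicates. That fit rests on 1 hem-like sum of 10 cells, which is assumed to vary as the other classes do. *Wnt7a* (adjusted p = 0.146, range 0.000649 to 0.146 over 12 alternatives) and *Wnt7b* (0.0578, range 8.97e-15 to 0.0578) then missed the threshold.

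Several of the genes were found together in the same hem-like cells. A hem-like cell had UMIs of a median of 6 of the 9 ligand genes in both replicates, with a range of 3 to 8 in replicate 1 and 0 to 8 in replicate 3. An RGC-like cell had UMIs of a median of 0. UMIs of all 3 R-spondins were present in 8 of 10 and 34 of 46 hem-like cells, against 0 of 687 and 3 of 1559 RGC-like cells. *Wnt8b* and *Rspo2* were both present in 10 of 10 and 42 of 46 hem-like cells. When each cell was thinned to 3000 UMIs, with shallower cells left out (0 of the hem-like cells), which removes differences of depth, *Rspo2* was found in 90.0% (95% Wilson interval 59.6 to 98.2) and 93.5% (82.5 to 97.8) of hem-like cells, *Wnt8b* in 80.0% (49.0 to 94.3) and 71.7% (57.5 to 82.7), and *Wnt3a* in 20.0% (5.67 to 51.0) and 21.7% (12.3 to 35.6). Unthinned, these shares were 100% and 95.7%, 100% and 93.5%, and, for *Wnt3a*, 3 of 10 and 25 of 46 cells. None of these 3 genes was found in the thinned red blood cell-like cells, 48 and 61 in number, which allows a share of up to 6.25% and 4.92%. The medians and joint counts above are unthinned. *Wnt2b* was found in 5 of 10 and 12 of 46 hem-like cells unthinned, but in 0 and 1 of them after thinning. Intervals and limits cover counting error only.

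Other genes of the pathway also differed between hem-like and RGC-like cells. *Wls*, which encodes the carrier that brings Wnt ligands to the cell surface, stood at 662 and 615 CPM against 15.2 and 27.6 CPM (log2 fold change 4.72 ± 0.32, adjusted p = 1.69e-09). Of 14 other ligand genes 4 could be tested, and 1 was higher, *Wnt9a*, at 112 and 127 CPM against 0.212 and 0.503 CPM (adjusted p = 2.09e-08). Of 19 receptor genes tested, 6 were higher and 3 lower, with *Fzd10* and *Ror1* among the higher and *Fzd8* among the lower. Of 6 inhibitor genes tested, 3 were higher and 2 lower. *Sfrp1*, a secreted Wnt-binding inhibitor, had 0 and 4.96 CPM in hem-like cells against 368 and 307 CPM in RGC-like cells (log2 fold change -6.31 ± 0.48, adjusted p = 9.44e-09). Of 11 target genes other than *Axin2*, 3 were higher and 2 lower. The higher ones were *Nkd1* (255 and 229.9 CPM against 7.94 and 16.3 CPM), *Sp5* (71.8 and 61.2 CPM against 1.59 and 4.88 CPM) and *Apcdd1*, all of which encode feedback regulators or target factors of the pathway. Over all genes tested, 8.7% were higher and 6.95% lower in hem-like cells. None of the 9 intracellular pathway genes tested passed the threshold, which for so few genes cannot be told from these shares.

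Choroid plexus-like cells were too few in replicate 1 to be tested against hem-like cells, so their levels are a description. They formed 2 sub-clusters, in both of which 6 of 7 hem markers were on. In the sub-cluster led by *Ttr*, of 29 cells of replicate 3, 8 of 9 choroid plexus markers were on. There *Rspo2* stood at 195 CPM, *Rspo3* at 47.5 CPM, *Axin2* at 33.4 CPM and *Wnt8b* at 24.6 CPM, while *Wnt3a*, *Wnt7a* and *Wnt7b* had 0 UMIs. In the other, of 3 and 22 cells, 7 of 9 choroid plexus markers were on, and *Sulf1* was its leading gene. *Rspo2* stood at 1509 CPM, *Rspo3* at 1596 CPM, *Wnt8b* at 164 CPM and *Axin2* at 149.9 CPM in replicate 3. Each of these 4 values in replicate 3 was lower than in hem-like cells and higher than in the first sub-cluster. In replicate 1, the 3 choroid plexus-like cells held 64 UMIs of *Rspo3* and 27 of *Rspo2* among 26011 UMIs. Hem-like cells held 371 and 290 among 125387 UMIs in replicate 1, and 1407 and 1348 among 604515 in replicate 3. As a share of UMIs, *Rspo3* in these 3 cells lay between the hem-like replicates, and *Rspo2* lay below both.

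**Figure D2:**
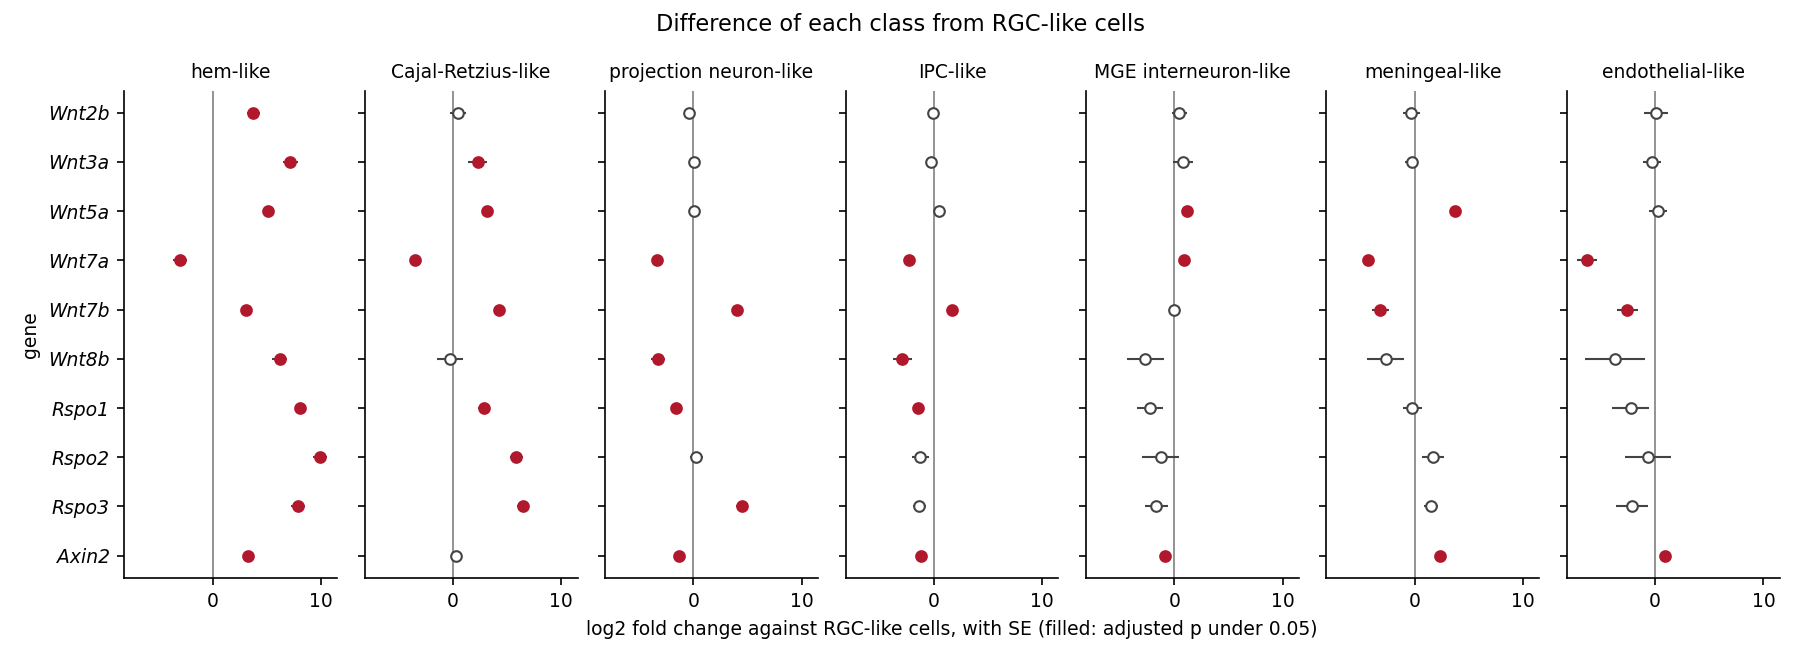
Log2 fold change of each gene in 7 cell classes against RGC-like cells, with its SE. Filled points passed an adjusted p of 0.05 and open points did not. All 10 points are filled for hem-like cells, with *Wnt7a* alone below 0, and all panels share the RGC-like sums.

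Cajal-Retzius cells are early Reln-producing neurons of the marginal zone, part of which arise at the cortical hem. Cajal-Retzius-like cells shared the R-spondins with hem-like cells at lower levels. *Rspo3* stood at 495 CPM in replicate 1 and 1259.9 CPM in replicate 3, and *Rspo2* at 38.3 and 193 CPM. Replicate 3 was higher for both, and both replicates lay above every RGC-like value. The log2 fold changes were 6.47 ± 0.59 for *Rspo3* and 5.86 ± 0.60 for *Rspo2* (edgeR adjusted p = 2.85e-08 and 3.02e-07). *Wnt7b* stood at 191 and 115 CPM (log2 fold change 4.25 ± 0.25, adjusted p = 4.3e-11) and *Wnt5a* at 29.4 and 69.0 CPM (log2 fold change 3.16 ± 0.37, adjusted p = 1e-06). Together with *Rspo1* (7.36 and 19.3 CPM) and *Wnt3a*, 6 of the 10 genes were higher, and *Wnt7a* was lower, where 24.9% of all genes tested were higher and 20% lower. The median log2 fold change was 2.57, beside 0.02 for all genes. The call for *Wnt3a* (adjusted p = 0.0426, range 0.0166 to 0.873 over 11 alternatives) rests on 4 UMIs, all in replicate 3, and was lost without the RGC-like cells of replicate 1 (0.0902). Without the Cajal-Retzius-like cells of replicate 3, *Rspo1* missed the threshold (adjusted p = 0.159, range 8.64e-06 to 0.159 over 13 alternatives) and the log2 fold change of *Wnt3a* was -0.31. *Axin2* was at 13.2 and 22.7 CPM, with 1 replicate below and 1 above its RGC-like value (adjusted p = 0.534, log2 fold change 0.26 with a 95% interval of -0.35 to 0.86). Of 19 receptor genes tested, 3 were higher and 11 lower in these cells, with *Fzd2* at 2.94 and 2.52 CPM against 79.8 and 65.8 CPM.

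RGC-like cells, the ventricular progenitors that self-renew and give rise to IPCs and neurons, were the main holders of *Wnt7a* among cortical classes. They held 57.9% of its UMIs in replicate 1 and 73.5% in replicate 3. After thinning, *Wnt7a* was found in 8.87% (6.94 to 11.3) and 8.29% (7.01 to 9.78) of 665 and 1520 RGC-like cells, against 34.8% and 28.0% of all 687 and 1559 unthinned. It differed little between the 3 RGC-like clusters led by *Mt3*, by histone genes and by *Cenpa* (between 28.9 and 42.6 CPM). It was lower, at 22.5 and 16.2 CPM, in the RGC-like cluster led by *Ltbp1*, with *Rmst* among its leading genes. That cluster held 67 cells of replicate 1 and 320 of replicate 3. *Wnt5a* stood there at 23.6 and 22.0 CPM, against at most 4.92 CPM in any replicate of the other 3 clusters. *Rspo3* stood there at 17.7 and 38.1 CPM, and *Axin2* at 24.8 and 29.7 CPM. *Axin2* was lowest in the *Mt3*-led cluster, at 6.99 and 8.45 CPM, and the ranges of the 2 clusters do not overlap. *Wnt8b* in RGC-like cells came mainly from replicate 3, with 2 UMIs in replicate 1 and 178 in replicate 3, of which 85 were in the *Ltbp1*-led cluster (22.5 CPM) and 83 in the cluster led by histone genes (9.49 CPM). Of the 54 UMIs of *Rspo2* in RGC-like cells, all in replicate 3, 43 were in the cluster led by histone genes. A planned comparison of RGC-like cells with and without *Wnt8b* was therefore not made. These clusters were drawn from the same cells, so the differences between them carry no test.

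Along the path from RGCs to IPCs and projection neurons, the paralogous ligands *Wnt7a* and *Wnt7b* ran in opposite directions. *Wnt7a* stood at 5.92 and 7.03 CPM in IPC-like cells, the basal progenitors that divide to neurons, and at 2.28 CPM in both projection neuron-like sums. Both classes lay below every RGC-like value (log2 fold change -2.25 ± 0.27 and -3.39 ± 0.26, edgeR adjusted p = 2.96e-06 and 1.45e-09). *Wnt7b* rose from 8.68 and 6.69 CPM in RGC-like to 27.0 and 23.2 CPM in IPC-like sums, and reached 97.2 and 106 CPM in those of projection neuron-like cells. The replicates of these 3 classes do not overlap (log2 fold change from RGC-like cells 1.72 ± 0.23 and 4.0 ± 0.23, adjusted p = 7.52e-06 and 5.37e-12). Both RGC-like values of *Wnt7b* lay between the red blood cell-like values of 11.5 and 1.87 CPM. These red blood cell-like values rest on 4 UMIs in replicate 1 and 1 UMI in replicate 3. Elsewhere *Wnt7b* stood at 0 and 0.579 CPM in meningeal-like cells and at 0 and 1.32 CPM in endothelial-like cells. In microglia-like cells its mean was 13.3 CPM, from 3 UMIs in each replicate. How much of the RGC-like level comes from free RNA was not tested. With predicted doublets kept, the difference of *Wnt7b* between IPC-like and RGC-like cells was 0.56 and missed the threshold (adjusted p = 0.0932, range 3.2e-07 to 0.0932 over 13 alternatives). *Axin2* was lower in both classes, at 6.59 and 6.51 CPM in IPC-like cells (log2 fold change -1.18 ± 0.23) and 4.76 and 5.14 CPM in the neurons (-1.30 ± 0.20), with adjusted p-values of 0.000387 and 9.37e-06.

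In IPC-like cells, 1 of the 10 genes was higher and 4 were lower than in RGC-like cells, where 14.4% of all genes tested were higher and 18.6% lower. The median log2 fold change was -1.21, beside -0.02 for all genes. The lower ones included *Wnt8b* and *Rspo1*, which had 5 UMIs each in IPC-like cells. For *Rspo1* the replicates went in opposite directions, since in replicate 1 the IPC-like level of 0.507 CPM exceeded the RGC-like level of 0.423 CPM. Without the RGC-like cells of replicate 3 both calls were lost (adjusted p = 0.852 for *Wnt8b*, range 3.11e-05 to 0.852 over 11 alternatives, and 0.874 for *Rspo1*, range 0.00226 to 0.874 over 12). They were also lost without the IPC-like cells of replicate 1 (0.0790 and 0.0614) or of replicate 3 (0.0609 and 0.307). *Rspo3*, at 0.845 and 5.27 CPM against 3.28 and 14.6 CPM, missed the threshold (adjusted p = 0.0867) and passed it with the replicate as a block (adjusted p = 0.0321, range 0.000518 to 0.967 over 13 alternatives). It also passed without the RGC-like cells of replicate 1 (0.00766) or the IPC-like cells of replicate 3 (0.0195). Its log2 fold change of -1.33 turned to 1.90 under a stricter filter on cells. All 4 TCF and LEF factor genes were lower, with *Tcf7l1* at 29.4 and 33.1 CPM against 199.8 and 196 CPM and *Tcf7l2* at 22.7 and 25.9 CPM against 170.4 and 139 CPM. Of 11 target genes, 1 was higher and 6 were lower. Of 9 intracellular pathway genes 2 were higher and 0 lower, and 5 were higher with the replicate as a block.

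Projection neuron-like cells, the glutamatergic neurons that leave the ventricular zone for the cortical plate, were the largest class and held most UMIs of *Wnt7b* (83.6% and 77.5%) and of *Rspo3* (84.6% and 58.1%). *Rspo3* stood at 175 CPM in replicate 1 and 187 CPM in replicate 3 of these cells, against 3.28 and 14.6 CPM in RGC-like cells (log2 fold change 4.52 ± 0.54, adjusted p = 4.66e-07). After thinning it was found in 26.7% (25.0 to 28.4) and 30.02% (28.3 to 31.8) of 2578 and 2675 cells, against 45.7% and 47.9% of all 2655 and 2812 unthinned. Its level was uneven among projection neuron-like clusters. It was between 218 and 327 CPM in the 3 clusters led by *Hs3st4*, *Gm49678* and *Slit3*, but 5.41 and 5.60 CPM in the cluster led by *Cdh8*, with *Unc5d* and *Neurod1* among its leading genes, 20.7 and 4.26 CPM in the cluster with *Tfap2d* among them, and 43.0 and 55.6 CPM in the shallowest cluster. *Wnt7b* was spread more evenly, between 49.1 and 109 CPM in all clusters but the *Hs3st4*-led cluster, where it stood at 173 and 180.4 CPM.

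**Figure D3:**
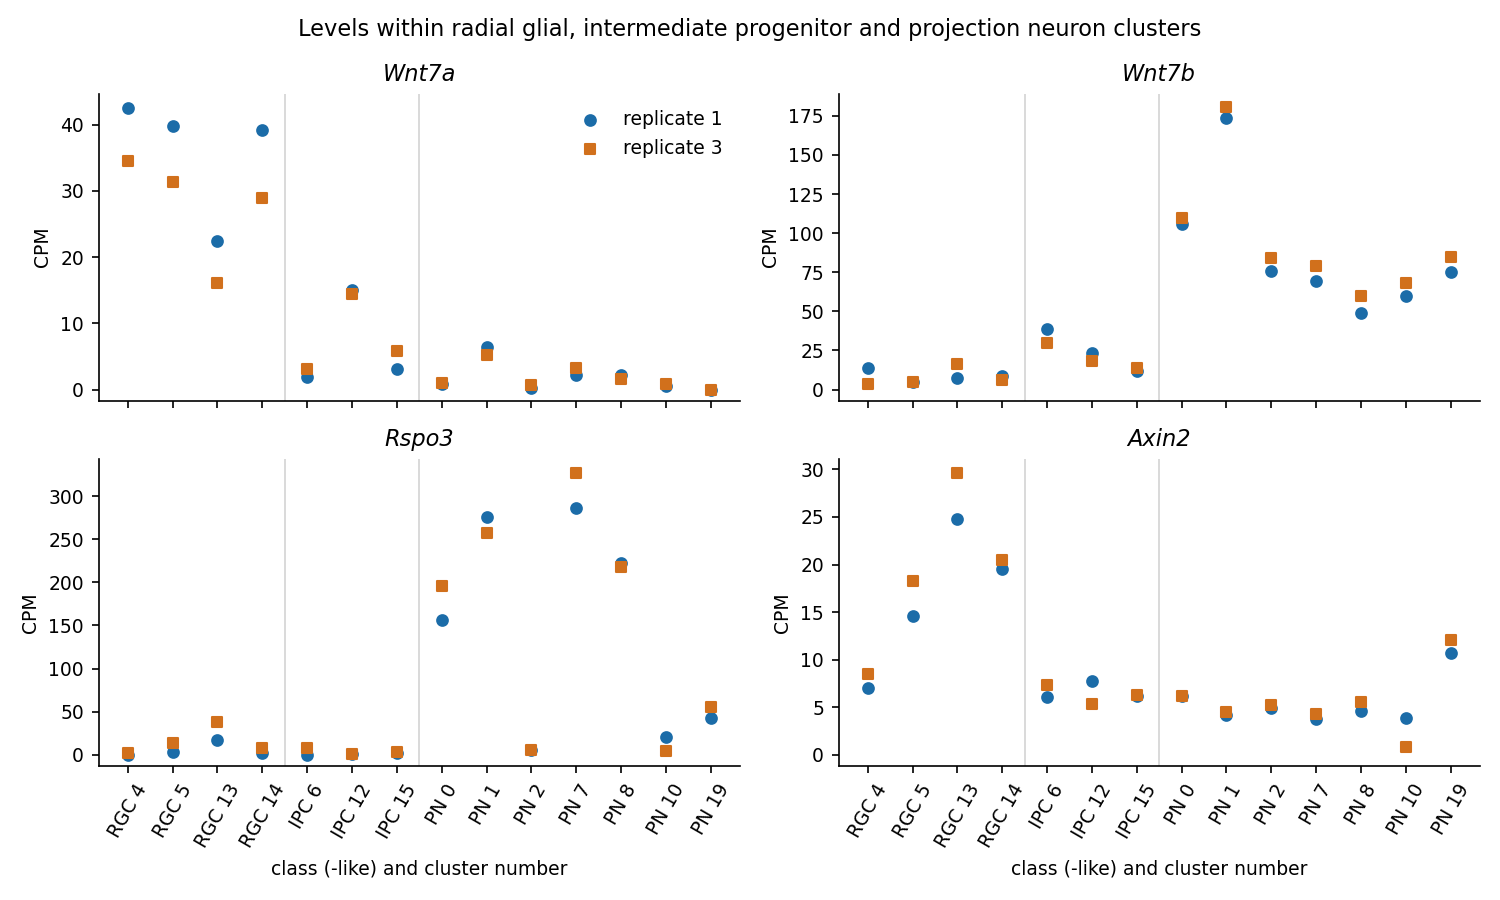
CPM of *Wnt7a*, *Wnt7b*, *Rspo3* and *Axin2* in each RGC-like, IPC-like and projection neuron-like (PN) cluster, with 1 point for each replicate. *Wnt7a* is highest in RGC-like clusters, *Wnt7b* in projection neuron-like clusters, *Rspo3* in 4 of 7 projection neuron-like clusters, and *Axin2* in 3 of 4 RGC-like clusters.

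In all, 2 of the 10 genes were higher and 4 were lower in projection neuron-like cells, where 34% of all genes tested were higher and 25.5% lower. The median log2 fold change was -0.16, beside 0.12 for all genes. The 2 further lower genes, *Wnt8b* (0.0326 and 0.228 CPM) and *Rspo1* (0.130 and 0.260 CPM), lost their calls without the RGC-like cells of replicate 3 (adjusted p = 0.836, range 6.65e-08 to 0.836 over 11 alternatives, and 0.472, range 1.15e-05 to 0.472 over 13). Of 19 receptor genes 1 was higher and 8 were lower, and of 11 target genes 1 was higher and 7 were lower. *Znrf3*, a target gene and a partner of R-spondins, stood at 20.6 and 20.0 CPM against 189.6 and 191 CPM. *Wls* was lower, at 2.18 and 2.80 CPM against 15.2 and 27.6 CPM (log2 fold change -2.65 ± 0.29), and *Porcn*, which encodes the enzyme that attaches the lipid to Wnt ligands, was higher, at 18.8 and 18.5 CPM against 4.44 and 4.23 CPM (2.32 ± 0.27).

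The SST+ interneurons of the study fall in the MGE interneuron-like class, which had the highest *Wnt7a* level of the 11 classes in the fit. It stood at 50.7 and 47.8 CPM, above both RGC-like values of 39.1 and 29.1 CPM (log2 fold change 0.86 ± 0.27, edgeR adjusted p = 0.0107). After thinning, *Wnt7a* was found in 14.8% (11 to 19.6) and 11.7% (7.52 to 17.7) of the 264 and 154 cells with at least 3000 UMIs, and in 0% and 1.64% of red blood cell-like cells. The 68 and 63 shallower cells were left out, and the unthinned shares over all 332 and 217 cells were 21.4% and 18.4%. In the cells with a UMI of *Sst*, 81 and 67 in number, *Wnt7a* stood at 53.9 and 49.3 CPM, and in those without, at 49.3 and 46.8 CPM. Cells with a UMI of *Sst* were deeper, with median UMI counts of 6006 and 5120 against 4092 and 3473. *Wnt5a* was higher than in RGC-like cells, at 11.6 and 8.61 CPM (adjusted p = 0.0444), and *Axin2* was lower, at 5.24 and 9.56 CPM (adjusted p = 0.0487, and 0.0556 with the replicate as a block). So 2 of the 10 genes were higher and 1 was lower, where 32.1% of all genes tested were higher and 25.4% lower, and the median log2 fold change was -0.44, beside 0.08 for all genes. None of the 3 calls remained without the MGE interneuron-like cells of replicate 1, where *Wnt7a* had an adjusted p of 0.184 (range 0.00337 to 0.276 over 13 alternatives), *Wnt5a* of 0.4795 (0.00213 to 0.4795) and *Axin2* of 0.371 (0.00659 to 0.371). Without those of replicate 3, *Wnt7a* (0.0862) and *Wnt5a* (0.114) missed the threshold. *Wnt7a* and *Axin2* also missed it without the RGC-like cells of replicate 3 (0.222 and 0.113), and *Wnt5a* without those of replicate 1 (0.215). The call for *Wnt7a* was lost as well with library sizes only, with no filter on low counts, with doublets kept and with a stricter cell filter. *Wls* and *Porcn* were both higher in these cells, *Wls* at 129 and 198 CPM (log2 fold change 3.19 ± 0.30, adjusted p = 1.25e-08). Of 11 target genes 0 were higher and 7 were lower, and of 4 factor genes 3 were lower. An unnamed cluster led by *Adarb2* with GABAergic markers, of 449 and 33 cells, carried *Wnt7a* at 26.1 and 42.8 CPM and *Wnt5a* at 30.8 and 143 CPM.

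Meningeal-like cells, from the connective tissue around the brain, stood out for *Wnt5a* and *Axin2*. *Wnt5a* was at 74.0 and 65.5 CPM (log2 fold change 3.68 ± 0.34, edgeR adjusted p = 4.63e-08) and *Axin2* at 74.0 and 76.5 CPM (2.35 ± 0.22, adjusted p = 2.51e-08), both replicates above those of RGC-like cells. *Wnt5a* ranged from 46.8 to 101 CPM over the replicates of the 4 meningeal-like sub-clusters, and *Axin2* from 19.5 to 106 CPM. *Wnt7a* and *Wnt7b* were lower, with 3 UMIs and 1 UMI in 192 meningeal-like cells. The ratios of summed UMIs were 26.5-fold lower for *Wnt7a* (counting interval 9.03 to 128.6) and 18.0-fold lower for *Wnt7b* (3.20 to 714), with adjusted p-values of 2.59e-06 and 0.00198. *Rspo3* stood at 12.3 and 33.0 CPM. It missed the threshold (adjusted p = 0.0525) and passed it with the replicate as a block (adjusted p = 0.0183, range 0.0019 to 0.84 over 13 alternatives), which makes 3 of the 10 genes higher in place of 2. It also passed without the RGC-like cells of replicate 3 (0.00190) or the meningeal-like cells of replicate 1 (0.0451). With predicted doublets kept, its log2 fold change of 1.5 turned to -0.26. Over all genes tested, 25.4% were higher and 22.3% lower in meningeal-like cells, and the median log2 fold change was -0.26 for the 10 genes and 0 for all genes to 2 decimals.

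The meningeal-like cells carried other ligands than the 10. Of 4 further ligand genes tested 3 were higher, *Wnt4* at 167 and 116 CPM against 4.23 and 1.11 CPM, *Wnt6* at 80.8 and 37.1 CPM against 0.106 and 0.0503 CPM, and *Wnt9a* at 23.3 and 29.0 CPM. *Wls* was higher, at 382 and 315 CPM (log2 fold change 4.09 ± 0.30, adjusted p = 4.55e-10). Of 11 target genes 9 were higher and 1 was lower, among them *Nkd1* at 244 and 303 CPM (log2 fold change 4.54 ± 0.44, adjusted p = 4.38e-08). *Ror1*, a receptor for Wnt5a, stood at 611 and 415 CPM against 3.70 and 2.97 CPM (7.23 ± 0.42, adjusted p = 2.35e-11).

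*Axin2* was also found in vascular cells. In pericyte-like cells, which wrap brain capillaries and were not compared with RGC-like cells by a planned test, *Axin2* stood at 83.4 and 69.0 CPM, overlapping with meningeal-like cells, and *Wnt5a* at 15.2 and 13.2 CPM. The R-spondins, *Wnt3a* and *Wnt8b* had 0 UMIs in pericyte-like cells. In endothelial-like cells *Axin2* stood at 38.6 and 18.5 CPM (log2 fold change 0.87 ± 0.34, edgeR adjusted p = 0.0422), and the lower of these values lay just above the higher RGC-like value of 18.0 CPM. After thinning, *Axin2* was found in 1 of 22 and 0 of 41 endothelial-like cells (4.55% and 0%), with 1 and 12 shallower cells left out. The thinned RGC-like shares were 3.91% and 5.59%, so the thinned cells do not show this difference. *Wnt5a* stood at 13.6 and 1.32 CPM in endothelial-like cells (adjusted p = 0.835). *Wnt7a* had 0 UMIs in both replicates of endothelial-like cells, so against the limit of 3 counts over the class it was at least 13.6-fold lower than in RGC-like cells (adjusted p = 1.56e-05). *Wnt7b* had 1 UMI, a ratio of 8.77-fold lower with a counting interval of 1.56 to 348. Its adjusted p was 0.0388, and 0.0578 with the replicate as a block (range 0.0242 to 0.156 over 12 alternatives), and it was 0.156 and 0.113 without the endothelial-like cells of replicate 1 or 3. Thus 1 of the 10 genes was higher and 2 were lower (1 with the block), where 21.5% of all genes tested were higher and 21.4% lower, and the median log2 fold change was -1.39, beside -0.10 for all genes. The call for *Axin2* was lost without the endothelial-like cells of replicate 1, 23 in number (adjusted p = 0.744, range 0.0104 to 0.744 over 12 alternatives) or the RGC-like cells of replicate 1 (0.228). Of 11 other target genes tested, 7 were higher, 0 were lower and 4 did not pass the threshold, with *Apcdd1* at 542 and 434 CPM against 9.21 and 20.0 CPM (log2 fold change 5.12 ± 0.34, adjusted p = 1.22e-10) and *Lef1*, both a factor and a target gene, at 474 and 462 CPM against 40.9 and 78.9 CPM (3.09 ± 0.37, adjusted p = 5.72e-07). *Adgra2*, a co-receptor that lets endothelial cells respond to WNT7A and WNT7B, stood at 61.2 and 49.0 CPM against 0.952 and 0.503 CPM (5.79 ± 0.48, adjusted p = 1.57e-08), and *Reck*, its partner, at 27.2 and 15.9 CPM against 19.05 and 19.2 CPM (adjusted p = 0.606). *Adgra2* was not particular to endothelial-like cells. Its mean in meningeal-like cells was 42.8 CPM (log2 fold change 5.41 ± 0.46, edgeR adjusted p = 2.04e-08).

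**Figure D4:**
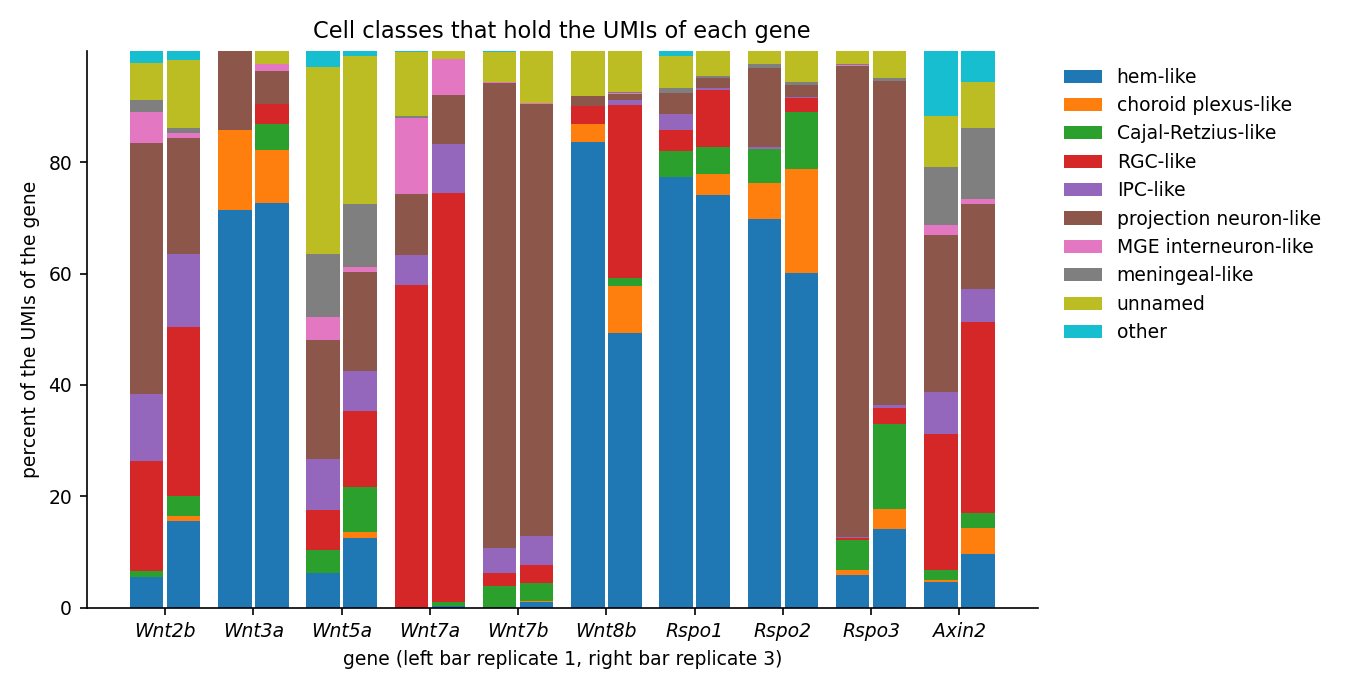
Percent of the UMIs of each gene, over all kept cells of a replicate, that lie in each cell class, with replicate 1 in the left and replicate 3 in the right bar. Hem-like cells, 10 and 46 in number, hold 71.4% and 72.6% of *Wnt3a*, 77.4% and 74.2% of *Rspo1*, and 69.7% and 60.02% of *Rspo2*, while projection neuron-like cells hold most of *Wnt7b* and *Rspo3*.

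Few cells held most of the UMIs of some of these genes. Hem-like cells made up 0.193% and 0.662% of the kept cells. They held 5 of 7 and 61 of 84 UMIs of *Wnt3a*, 82 of 106 and 345 of 465 UMIs of *Rspo1*, and 290 of 416 and 1348 of 2246 UMIs of *Rspo2*. Of *Wnt8b* they held 83.6% in replicate 1 and 49.4% in replicate 3, where RGC-like cells held 31.1%. *Wnt5a* had no such dominant class. Its largest named holder was projection neuron-like cells, with 21.3% and 17.7%, and 33.6% and 26.7% lay in unnamed clusters. Of these 161 and 266 UMIs, 85 and 20 were in the *Adarb2*-led cluster, and 76 and 232 in a cluster led by *Pcp4*. *Axin2* was spread widely too, with 24.4% and 34.3% in RGC-like cells and 4.64% and 9.60% in hem-like cells.

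In the order of levels over the 11 classes in the fit, hem-like cells came first for *Wnt2b*, *Wnt3a*, *Wnt5a*, *Wnt8b*, *Rspo1*, *Rspo2*, *Rspo3* and *Axin2*, and in each case the lower hem-like replicate lay above every replicate of the class in second place. Choroid plexus-like cells, with 3 cells in replicate 1, were outside the fit and have no place in this order. Their *Rspo3* level in replicate 1 lay between the hem-like replicates. For *Wnt7b* Cajal-Retzius-like cells came first, at 153 ± 53.8 CPM (SD, n = 2), then projection neuron-like cells at 102 ± 6.23 CPM and hem-like cells at 69.9 ± 8.69 CPM, with no overlap between neighbours. For *Wnt7a* MGE interneuron-like cells, RGC-like cells and IPC-like cells came first without overlap, and hem-like, projection neuron-like and Cajal-Retzius-like cells overlapped in the places after them. Behind hem-like cells, meningeal-like and Cajal-Retzius-like cells overlapped for *Wnt5a*, and pericyte-like and meningeal-like cells for *Axin2*.

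Over the 22 sums of these 11 classes, the genes whose log2(CPM + 1) followed each member most closely are given as a description, since sums of 1 library share its depth and the hem-like sums weigh heavily. *Wnt8b* was itself among the 3 genes closest to *Wnt3a* (Pearson's r = 0.962). *Rspo2* followed *Gmnc* (r = 0.962) and *Lmx1a* (r = 0.952), the latter a hem marker used for naming, and *Rspo1* followed *Otx2* (r = 0.954), a choroid plexus marker used for naming. *Wnt7a* followed *Gm45025* (r = 0.927) and *Sox1* (r = 0.880), *Wnt7b* followed *Nfasc* (r = 0.910) and *Pcp4* (r = 0.907), *Rspo3* followed *Sv2b* (r = 0.909), *Wnt5a* followed *Zfp804b* (r = 0.920) and *Axin2* followed *Heph* (r = 0.917).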

How the data were processed

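UMI counts per gene and cell barcode were used as deposited. The authors counted them with Cell Ranger 7.0.0 (10x Genomics chemistry, version v3.1), and the submitters' processing notes name the build mm10. Annotation, intron setting and cell calling are not given in the sources used here. No deposited barcode had fewer than 502 (replicate 1) or 500 (replicate 3) UMIs.

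Cells were kept at 1500 to 60000 UMIs with less than 10% of them mitochondrial. Doublets were scored on simulated pairs, and the highest 0.8% per 1000 barcodes were removed (269 and 531). Clustering used 2000 variable genes, without the 10 genes, the pathway lists and mitochondrial genes, with 30 components, 15 neighbours and Leiden resolution 1.0. Clusters rich in hem or choroid plexus markers were clustered again (resolution 0.5). A name needed at least 3 markers on (scaled level over 0.5 and UMIs in at least 10% of cells). The rule that hem and choroid plexus names precede RGC was added after the data were seen. Of 32 clusters and sub-clusters, 4 stayed unnamed, with 1607 cells.

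UMIs were summed per class and replicate for the 11 classes with at least 10 cells in both replicates. All 22 sums entered 1 fit (edgeR quasi-likelihood test, TMM factors, prior count 2, Benjamini-Hochberg adjustment, threshold 0.05), and SE was the size of the log2 fold change divided by the root of F. All 7 comparisons share the RGC-like sums. Sums of 1 number come from 1 library, so the numbers pair them, and the correlation of replicate differences was -0.02 for hem-like to 0.36 for IPC-like cells. The labels do not say that the samples are separate embryos, so p-values measure the spread between these samples, which may be technical. Comparisons of choroid plexus-like with hem-like cells, and of RGC-like cells with and without *Wnt8b*, were not made for lack of cells. The members and lists were chosen with earlier results of these data known. Genes named beside the members were, per list and comparison, up to 3 with the largest change past the threshold and the same direction in both replicates, and the 3 most correlated genes of each member. *Reck* was named outside this rule, after its values were seen, as the partner of *Adgra2*. The test was tried on simulated counts for hem-like against RGC-like cells. It recovered 4.26% of changes of 0.5 log2 units, 30.2% of 1, 76.6% of 2 and 85.7% of 4, with 6 false calls among 99 calls. A gene that missed the threshold in that comparison may therefore still differ by 1 log2 unit. Alternatives covered scaling, DESeq2, the count filter, the classes fitted, the replicate block, doublets, cell filter, resolution and left-out sums. Software was Python 3.11.15, scanpy 1.11.5, R 4.3.3, edgeR 4.0.16 and DESeq2 1.42.0.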

Additional observations from a re-analysis of the deposited data

How the results depend on the processing

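A fit without 1 sum assumes that the lone sum left varies as the other classes do. For hem-like cells, 10 calls were made in each alternative but without the hem-like cells of replicate 3, where 8 remained. The number of genes called in IPC-like cells was 3 with DESeq2 and 3 with only the classes compared in the fit, against 5. In MGE interneuron-like cells it was 1 with library sizes only, without a filter on low counts, with predicted doublets kept or with a stricter cell filter, against 3. Leaving out 1 sum gave 3 to 7 calls in IPC-like cells, 0 to 5 in MGE interneuron-like cells and 1 to 3 in endothelial-like cells, and over all genes 567 to 1571 calls for hem-like and 2611 to 3083 for IPC-like cells. These sums were left out as an alternative chosen after seeing the data. For MGE interneuron-like and endothelial-like cells, and for the alternatives that left out no sum, no count over all genes is given here. Fewer calls among the 10 genes in those cases therefore cannot be told from a general loss of calls.

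Reversed values, with causes not tested, were *Rspo3* in meningeal-like cells with doublets kept (-0.26), *Rspo3* in IPC-like cells at resolution 2.0 (0.99) and with a stricter cell filter (1.90), *Rspo1* in IPC-like cells in replicate 1 alone (0.17), *Wnt8b* and *Rspo3* in IPC-like cells without the RGC-like cells of replicate 3 (0.22 and 0.0690), and *Wnt3a* in Cajal-Retzius-like cells without those of replicate 3 (-0.31 fitted, 0 in replicate 1 alone). The values without 1 sum or library reached -3.80 for *Wnt8b*, -2.87 for *Rspo1*, and -2.95 to 0.0690 for *Rspo3* in IPC-like cells, and 3.38 for *Wnt3a* in Cajal-Retzius-like cells. Of 580 fold change values, 489 kept direction and call, 50 lost and 9 gained a call, 8 reversed and 24, without a test, moved by over 1 SD. A whole left-out library leaves no test, only values. With the stricter cell filter, hem-like and endothelial-like cells could not be fitted. Scaling moved the median log2 fold change of all genes by over 0.1 for projection neuron-like (-0.11 with DESeq2 size factors, -0.28 with library sizes), MGE interneuron-like (-0.27), endothelial-like (-0.13) and meningeal-like cells (-0.12, all with library sizes). For the 10 genes, the replicate block changed no call other than those given above. Depth limits *Wnt3a*, with 7 UMIs in all of replicate 1.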

Other observations

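An unnamed sub-cluster of 5 and 55 cells, led by *Sfta3-ps*, with *Six3*, *Fgf17* and *Nkx2-1* among its leading genes, carried R-spondins beside the hem-like cells. In replicate 3 it had *Rspo3* at 383 CPM, *Rspo2* at 196 CPM and *Wnt8b* at 74.4 CPM, while *Wnt2b* and *Wnt3a* had 0 UMIs. In replicate 1, with 5 cells, *Rspo2* and *Rspo3* had 0 UMIs and *Wnt8b* had 4. A second unnamed cluster of 229 and 710 cells, led by *Pcp4* with *Nhlh1*, *Tac2* and *Neurod1* among its leading genes, had *Wnt5a* at 28.8 and 31.3 CPM, where IPC-like cells had 7.44 and 7.45 CPM, and the projection neuron-like class 3.32 and 5.75 CPM.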
